A study of Rattus norvegicus with 6 samples.

Results

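The 10 genes described here are markers of astrocytes or carry out the uptake and recycling of glutamate by these cells: Gfap, Aqp4, Gja1, Gjb6, Slc1a2, Slc1a3, Slc4a4, Aldh1l1, S100b and Glul. They were chosen by name and matched to the gene symbols of the count table, where all 10 of the 17455 listed genes were found and all 10 were among the 11800 genes with enough counts to be tested. The table held hippocampal RNA-Seq counts of 3 wild-type (WT) and 3 Fmr1 knockout (KO) male rats of 10 weeks, 1 library per rat, on the Long Evans background, where the KO rats carry the LE-Fmr1em2Mcwi allele. The methods give a single litter per group for transcriptomics, and also state that WT and KO rats were chosen among littermates. Whether a group there means a genotype is not clear. If it does, litter and genotype cannot be told apart. In either case rats may share a litter, and the p-values measure the spread between these rats only.

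Astrocytes take up the glutamate that neurons release through the transporters GLT-1, encoded by Slc1a2, and GLAST, encoded by Slc1a3, and turn it into glutamine with the enzyme encoded by Glul. Glutamine then returns to neurons, which make glutamate from it again. The same cells buffer potassium and acid, move water at their endfeet around blood vessels and are joined by gap junctions into a network, and these tasks rest on several of the other genes of the set.

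The libraries held 9619812 to 13390476 reads assigned to genes. Levels are CPM, the counts of a gene relative to the TMM-scaled library total. Changes are log2 fold changes of KO over WT, tested two-sided with the quasi-likelihood method of edgeR, and p-values were adjusted over all 11800 genes by the Benjamini-Hochberg method. Fmr1 fell to 14.0 ± 3.02 CPM in KO from 49.9 ± 2.09 CPM in WT rats (SD, n = 3 each, adjusted p = 5.73e-06 from edgeR), with no overlap between the groups. WT replicate 3 stood apart from its group: its score on the first principal component was 6.20, against -19.6 and -12.4 for the other WT libraries and 5.49 to 11.01 for KO libraries. On the second, KO replicate 3 lay highest at 20.1. The 10 genes together took 0.830% to 0.913% of the counts in WT and 0.915% to 1.05% in KO libraries, without TMM scaling. With TMM scaling their summed level overlapped between the groups, at 8336 to 9222 CPM in WT and 9125 to 10533 CPM in KO libraries.

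Most of the 10 genes were slightly higher in KO rats, but none passed an adjusted p of 0.05. The gap junction gene Gjb6, the bicarbonate transporter gene Slc4a4 and the water channel gene Aqp4 were higher at an unadjusted p under 0.05, which the methods used as the limit for differential expression, with log2 fold changes of 0.29, 0.24 and 0.18. Of the 10 genes, 9 had a positive log2 fold change, and the median was 0.16 against 0.0017 over all genes tested. The exceptions at the lower end were Gja1 (0.0070) and Gfap (-0.0083), which differed little between the groups. Limma-voom called the same 3 genes, and none at an adjusted p. These 3 of 10 genes stand beside a background of 4.19% of all genes higher at an unadjusted p under 0.05. No gene of the set was lower at that threshold, against 5.15% of all genes, and 0 passed an adjusted p of 0.05, against 0.0254% of all genes. The count of 3 depended on single libraries. It was 1 (Gjb6) without WT replicate 2, 2 (Gjb6 and Slc4a4) without KO replicate 3, 5 without WT replicate 1 and 6 without WT replicate 3. The background moved too, from 495 of 11800 genes higher in the main fit. In the same order, it was 324 of 11889, 374 of 11926, 340 of 11927 and 1033 of 11891 genes. In RNA of hippocampal tissue, a change in the number of astrocytes and a change in the RNA of each astrocyte cannot be told apart. The methods name hippocampal samples without saying which part of the hippocampus was taken.

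With DESeq2, the tool named in the study's methods, 5 of the 10 genes were higher at an unadjusted p under 0.05, against 2.55% of the genes it tested, namely the same 3 genes together with Slc1a3 and Glul. At an adjusted p under 0.05 DESeq2 called 0 of the 10, against 0.482% of the genes with an adjusted p.

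**Figure D1:**
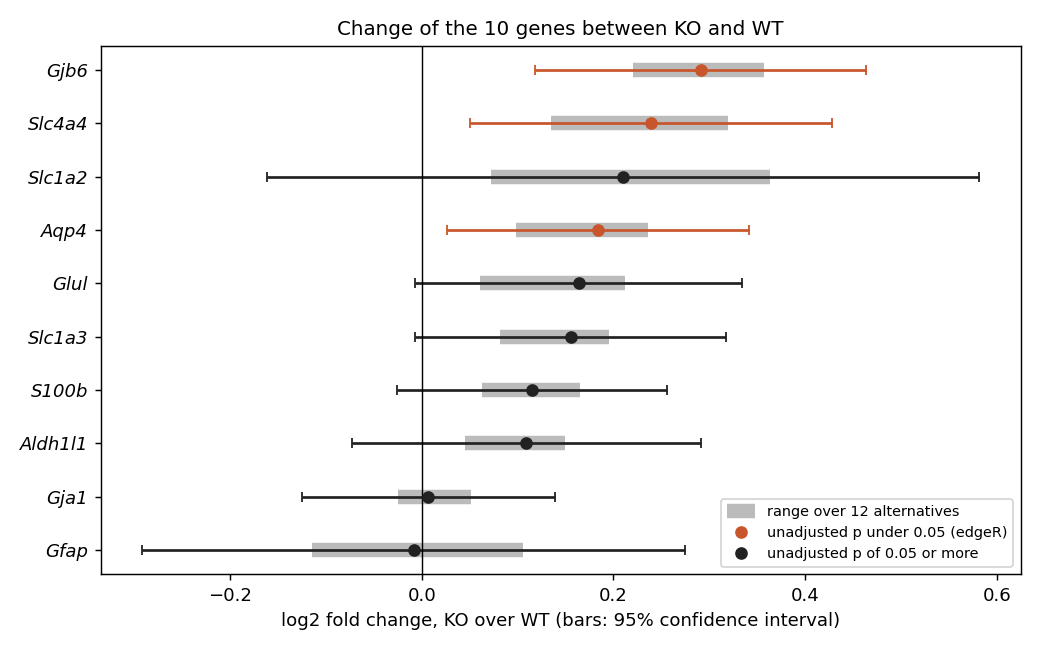
Log2 fold change of KO over WT for each of the 10 genes (x axis), with the 95% confidence interval from edgeR as bars and the range over 12 alternatives of processing as grey bands. Gjb6, Slc4a4 and Aqp4 lie above 0 with their whole interval, whereas the intervals of the other 7 genes include 0.

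Gjb6 encodes a connexin that forms astrocytic gap junctions together with the product of Gja1. Its level was 75.2, 79.3 and 84.7 CPM in WT replicates 1, 2 and 3, and 88.2, 97.4 and 107 CPM in KO replicates 1, 2 and 3. Every KO library therefore lay above every WT library, the lowest KO library being close to the highest WT library. The level was 22.3% higher in KO rats, with a 95% interval from 8.56% to 37.9% (log2 fold change 0.29, SE 0.08, unadjusted p = 0.00269, adjusted p = 0.312 from edgeR). By p-value Gjb6 was number 101 of all genes tested, first within the set. Over all alternatives tried, its log2 fold change stayed between 0.22 and 0.36 and its unadjusted p under 0.05. Only without WT replicate 3 did its adjusted p pass, at 0.0485, in a fit that passed 256 genes in place of 3.

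Gja1, which encodes the more abundant of the astrocytic connexins in most brain regions, had 555, 571 and 617 CPM in the WT libraries and 572, 570 and 609 CPM in the KO libraries. The groups overlapped fully, and the spread over all libraries was the smallest of the set, the highest level being 1.11 times the lowest. The interval of the difference between KO and WT ran from -8.29% to 10.1% (log2 fold change 0.0070, SE 0.06, unadjusted p = 0.911), so that an increase of the mean size seen for Gjb6 lies outside it. Taken within each library, a ratio that does not depend on scaling, the log2 ratio of Gja1 to Gjb6 counts was 2.88, 2.85 and 2.86 in WT and 2.70, 2.55 and 2.50 in KO rats. The KO values were lower in 3 of 3 libraries, by 0.28 on average (2.86 ± 0.018 in WT and 2.58 ± 0.10 in KO, SD, n = 3 each). The two-sided exact permutation test gave p = 0.1, the smallest p that 3 against 3 libraries allow, and 0.4 when adjusted over the 4 ratios examined.

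**Figure D2:**
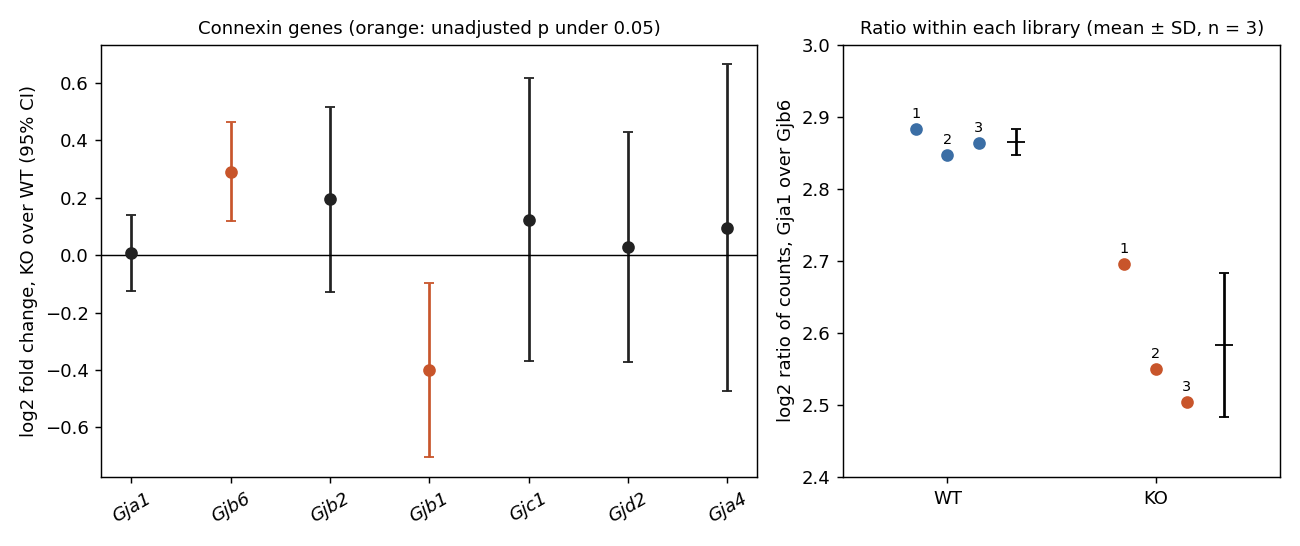
Left, log2 fold change of KO over WT (y axis) for 7 connexin genes (x axis) with 95% confidence intervals from edgeR; right, log2 ratio of Gja1 to Gjb6 counts in each library (y axis, points numbered by replicate) with mean and SD per group. Gjb6 lies above 0, Gjb1 below 0 and Gja1 at 0, and the 3 WT ratios, at 2.85 to 2.88, lie above the 3 KO ratios, at 2.50 to 2.70.

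Among the other connexins and pannexins, 0 of 11 tested genes were higher and 2 were lower when unadjusted p-values under 0.05 were counted. The shares over all genes tested were 4.19% higher and 5.15% lower. None of the 11 passed an adjusted p of 0.05. Among the lower genes was Gjb1 (log2 fold change -0.40, SE 0.14, unadjusted p = 0.0137), which encodes a connexin of oligodendrocytes. Gjb1 had 22.7, 22.2 and 20.2 CPM in WT and 17.5, 19.1 and 12.2 CPM in KO rats, without overlap. Markers of oligodendrocytes moved in the same direction, their summed level being 13547 to 14313 CPM in WT and 10715 to 12244 CPM in KO libraries, and their part in the level of Gjb1 was not tested. Gjb2, the connexin gene that neighbours Gjb6 on its chromosome, had a log2 fold change of 0.19 (SE 0.15, unadjusted p = 0.218) at means of 14.7 CPM in WT against 16.7 CPM in KO rats. The median of this list was 0.04.

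The sequences just upstream of the transcription starts of Gjb6, Slc4a4 and Gja1 are shown because the first 2 are the genes of the set whose groups did not overlap, and Gja1 is the partner of Gjb6 that did not differ. They are the 100 bases before a start annotated by RefSeq in the GRCr8 assembly (the counts were made on rn6), 5′ to 3′ on the strand of the gene, at chr15:35410139-35410238 on the minus strand for Gjb6, chr14:19468283-19468382 on the minus strand for Slc4a4 and chr20:36302464-36302563 on the plus strand for Gja1. Capitals mark matches to the motifs searched.
Gjb6: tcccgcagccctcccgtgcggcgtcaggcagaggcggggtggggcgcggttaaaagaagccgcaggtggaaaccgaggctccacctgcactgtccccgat
Slc4a4: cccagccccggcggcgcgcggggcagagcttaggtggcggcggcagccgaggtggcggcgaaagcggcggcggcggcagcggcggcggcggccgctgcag
Gja1: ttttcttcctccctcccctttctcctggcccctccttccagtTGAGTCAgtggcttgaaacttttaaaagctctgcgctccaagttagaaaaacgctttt

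The window of Gja1 held 1 match to the AP-1 motif, TGANTCA, starting at position -58 from the start, while the bases shown for Gjb6 and Slc4a4 held no match to any motif searched. Matches were sought on both strands in all 16 windows that RefSeq gives for the 10 genes, each of 250 bases before and 50 after a start. Gja1 was the only gene of the set with the AP-1 motif, in 1 of the 16 windows, and 7.33% of all 33469 such windows hold it. The CCAAT box, of the letters CCAAT, was found for Aldh1l1, Aqp4, Gja1, Glul and S100b, in 6 of 16 windows against 37.5% of all windows. The GC box, of the letters GGGCGG, was found for Aldh1l1, Aqp4, Gjb6, Glul and Slc1a2, in 7 of 16 windows against 33.1%. A half-site of nuclear factor I, of the letters TTGGCA, was found for Gjb6, Glul, S100b and Slc1a3, in 6 of 16 windows against 14.0%. This half-site can overlap a CCAAT box read on the other strand. A core motif of SOX factors, of the letters ACAAAG, was found for Aqp4, Gjb6 and Slc1a3, in 5 of 16 windows against 18.8%. The windows of Slc1a3 overlap almost fully, so the same letters are counted more than once in both motifs. No window of the set held the TATA box written as TATAAA (14.2%) or the E-box written as CACGTG (6.42%). Such matches describe letters in a window and no binding was measured.

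Slc4a4 encodes a cotransporter that moves sodium together with bicarbonate and sets the pH of astrocytes. Its level was 102, 83.3 and 109 CPM in the WT libraries and 114, 120 and 112 CPM in the KO libraries. All KO libraries lay above all WT libraries, but WT replicate 3 came within a few CPM of the lowest KO library and WT replicate 2 stood apart at the lower end. The level was 18.0% higher in KO rats, with an interval from 3.53% to 34.5% (log2 fold change 0.24, SE 0.09, unadjusted p = 0.0169, adjusted p = 0.438 from edgeR). Without WT replicate 2 the unadjusted p was 0.0981 and the log2 fold change 0.14, and without KO replicate 2 the unadjusted p was 0.0708. In the GRCr8 annotation the span of Slc4a4 also holds the uncharacterised pseudogene LOC134481884, and the strand setting of the counting is not given in the sources used here. Gjb6 and Slc4a4 were thus the 2 of 10 genes in which the KO libraries lay above the WT libraries without overlap, where 7.19% of all genes tested did. None of the 10 lay below without overlap, against 7.52% of all genes.

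Aqp4 encodes the water channel of the astrocyte endfeet. It had 1135, 1017 and 1063 CPM in WT and 1124, 1170 and 1358 CPM in KO rats. The groups overlapped, since WT replicate 1 exceeded KO replicate 1, and KO replicate 3 was well above all other libraries. The level was 13.6% higher in KO rats, with an interval from 1.83% to 26.7% (log2 fold change 0.18, SE 0.07, unadjusted p = 0.0254, adjusted p = 0.466 from edgeR). The unadjusted p rose to 0.170 and the log2 fold change fell to 0.0980 without KO replicate 3, and the unadjusted p was 0.1 without WT replicate 2.

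Of 18 tested genes that move water, potassium and bicarbonate beside Aqp4 and Slc4a4, 1 was higher and 1 lower by unadjusted p under 0.05. That is near the shares over all genes tested, 4.19% higher and 5.15% lower. None of the 18 passed an adjusted p of 0.05. The higher gene was Kcnj10, the inward rectifier through which astrocytes take up potassium. Kcnj10 had 82.6, 81.0 and 93.4 CPM in WT and 102, 97.4 and 98.9 CPM in KO rats, without overlap (log2 fold change 0.21, SE 0.07, unadjusted p = 0.0100, adjusted p = 0.385 from edgeR). Lower was Aqp11, an intracellular water channel (log2 fold change -0.32, SE 0.15, unadjusted p = 0.0470), at 11.2 CPM in WT against 8.94 CPM in KO rats. With DESeq2 and limma-voom, and without KO replicate 1, 2 or 3 or WT replicate 1 or 2, the count of lower genes in this list was 0, and without WT replicate 3 the counts were 4 higher and 2 lower. Not called was Mlc1, a membrane protein of the endfeet (-0.03, SE 0.06, unadjusted p = 0.595). The median of this list was 0.01.

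**Figure D3:**
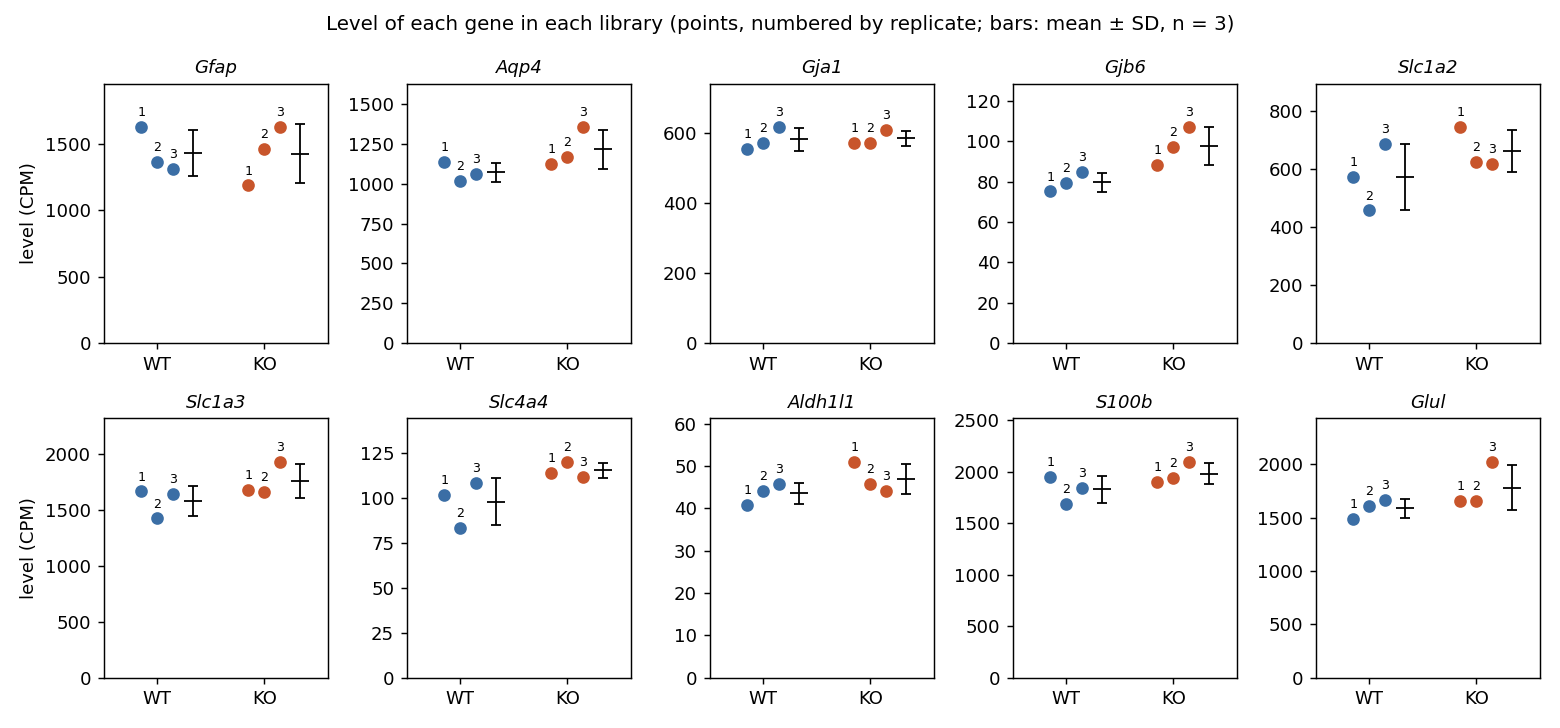
Level in CPM (y axis, from 0) of each of the 10 genes in the 3 WT and 3 KO libraries (points, numbered by replicate), with the mean and SD of each group (n = 3). In Gjb6 and Slc4a4 the KO points lie above all WT points, and KO replicate 3 is the highest library in Aqp4, Slc1a3, S100b, Glul and Gjb6.

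The glutamate transporters and glutamine synthetase had positive log2 fold changes that did not pass either threshold in edgeR. Slc1a3 had 1668, 1426 and 1647 CPM in WT and 1681, 1664 and 1935 CPM in KO rats. WT replicate 2 was lowest and KO replicate 3 highest, while the other 4 libraries lay close together, between 1647 and 1681 CPM. The difference was 11.4%, with an interval from -0.51% to 24.7% (log2 fold change 0.16, SE 0.08, unadjusted p = 0.0598, adjusted p = 0.549 from edgeR). DESeq2 gave an unadjusted p of 0.0435.

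Glul had 1493, 1608 and 1670 CPM in WT and 1657, 1661 and 2027 CPM in KO rats. Here too KO replicate 3 exceeded all other libraries, and KO replicates 1 and 2 lay between WT replicates 2 and 3. The difference was 12%, with an interval from -0.479% to 26.1% (log2 fold change 0.16, SE 0.08, unadjusted p = 0.0587, adjusted p = 0.548 from edgeR). Without KO replicate 3 the log2 fold change of Glul was 0.0611 and that of Slc1a3 was 0.0819, and without WT replicate 2 that of Slc1a3 was 0.0876. Leaving out WT replicate 1 gave Slc1a3 an unadjusted p of 0.0339, and leaving out WT replicate 3 gave 0.0419 for Slc1a3 and 0.0427 for Glul. Leaving out KO replicate 2 gave 0.0458 for Slc1a3 and 0.0345 for Glul, and leaving out KO replicate 1 gave 0.0306 for Glul. In the GRCr8 annotation the span of Glul also holds the genes Rgsl1, Rgsl2h, Teddm1b and Teddm1a.

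Slc1a2 varied most of the set among the WT libraries. It had 571, 456 and 687 CPM in WT and 745, 623 and 615 CPM in KO rats, a coefficient of variation of 20.1% in WT and 11% in KO rats. WT replicate 3 exceeded 2 of the KO libraries, and the highest library had 1.63 times the level of the lowest. Hence the interval of the difference was wide, from -10.6% to 49.6% (log2 fold change 0.21, SE 0.15, unadjusted p = 0.220, adjusted p = 0.721 from edgeR). Both no change and an increase of the mean size seen for Gjb6 lie inside this interval. The unadjusted p was 0.0175 without WT replicate 3, with a log2 fold change of 0.36, and the log2 fold change was 0.0727 at the lowest of the alternatives.

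The log2 ratio of Slc1a2 to Slc1a3 was -1.48 ± 0.20 in WT and -1.42 ± 0.24 in KO rats (SD, n = 3 each), and that of Glul to Slc1a2 was 1.495 ± 0.28 and 1.43 ± 0.28. The groups overlapped in both ratios, with p = 0.8 in the two-sided exact permutation test for each, also when adjusted over the 4 ratios. Neither ratio therefore differed beyond the spread between rats, and the direction of each turned when single libraries were left out.

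Of 23 further tested genes of glutamate and glutamine handling, 1 was higher and 0 were lower by unadjusted p under 0.05. That is near the shares over all genes tested, 4.19% higher and 5.15% lower. None of the 23 passed an adjusted p of 0.05. The higher gene was Slc38a2, a transporter of glutamine and other small neutral amino acids. Slc38a2 had 145, 153 and 176 CPM in WT and 182, 186 and 185 CPM in KO rats, without overlap (log2 fold change 0.22, SE 0.07, unadjusted p = 0.00807, adjusted p = 0.365 from edgeR). The mitochondrial glutamate carrier Slc25a18 had a log2 fold change of 0.13 (unadjusted p = 0.0913). Slc38a3, which releases glutamine from astrocytes, had -0.11 (unadjusted p = 0.158), and the vesicular glutamate transporter Slc17a7 of excitatory neurons had -0.11 (unadjusted p = 0.113). The neuronal transporter Slc1a1, of the same family as Slc1a2 and Slc1a3, had -0.05 (SE 0.07, unadjusted p = 0.518), and glutamate dehydrogenase Glud1 -0.04 (unadjusted p = 0.509). Slc1a7 had too few counts to be tested. The median of this list was -0.02.

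Gfap, the intermediate filament gene whose expression rises in reactive astrocytes, did not differ between the groups beyond their spread. It had 1629, 1361 and 1309 CPM in WT and 1188, 1460 and 1627 CPM in KO rats. The lowest library was KO replicate 1, and the highest, WT replicate 1, had nearly the level of KO replicate 3. The interval ran from -18.3% to 21.0% (log2 fold change -0.0083, SE 0.12, unadjusted p = 0.948, adjusted p = 0.991 from edgeR). The log2 fold change was 0.11 without KO replicate 1 and -0.11 without KO replicate 3, so that its sign rested on single libraries. The log2 ratio of Gfap to Aldh1l1 was 5.03 ± 0.25 in WT and 4.91 ± 0.34 in KO rats (SD, n = 3 each, p = 0.7 in the two-sided exact permutation test, 0.8 adjusted over the 4 ratios).

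Of 30 tested genes known from reactive astrocytes other than Gfap, 1 was higher and 5 were lower by unadjusted p under 0.05. Over all genes tested these shares were 4.19% and 5.15%. None of the 30 passed an adjusted p of 0.05. Vim, the filament partner of Gfap, had 78.7, 89.1 and 83.4 CPM in WT and 65.3, 82.2 and 64.7 CPM in KO rats (log2 fold change -0.24, SE 0.09, unadjusted p = 0.0225). The filament gene Nes (-0.75, unadjusted p = 0.00659), the sphingosine phosphate receptor S1pr3 (-0.61, unadjusted p = 0.00114) and the immunoproteasome subunit Psmb8 (-1.06, unadjusted p = 0.00539) were lower, at means of 4.80, 14.2 and 2.44 CPM in WT and 2.84, 9.39 and 1.18 CPM in KO rats. Higher was the hyaluronan receptor Cd44 (0.33, unadjusted p = 0.0294), and lower was also the complement inhibitor Serping1 (-0.44, unadjusted p = 0.0405), both named after their values were seen. Vim, Nes and S1pr3 are also expressed by vascular cells, and the part of these cells in their levels was not tested. Of the defining genes of strongly reactive astrocytes, Serpina3n, Lcn2 and Cxcl10 were not tested, with at most 3, 7 and 6 counts in any library. Without WT replicate 2, KO replicate 1 or KO replicate 3 the count of lower genes was 3, and the count of higher genes was 0 with DESeq2 and 3 without WT replicate 3. The median of the list was 0.02.

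S100b, which encodes a calcium-binding protein of astrocytes and of some oligodendrocytes, had the most reads of the set. It had 1953, 1690 and 1844 CPM in WT and 1905, 1940 and 2098 CPM in KO rats. The groups overlapped through WT replicate 1, and the difference was 8.33%, with an interval from -1.74% to 19.4% (log2 fold change 0.12, SE 0.07, unadjusted p = 0.101, adjusted p = 0.597 from edgeR). Without WT replicate 1 the log2 fold change of S100b was 0.17 with an unadjusted p of 0.0339, and it was 0.0627 without WT replicate 2 and 0.0722 without KO replicate 3. Oligodendrocyte markers, in contrast, were lower in KO rats, and their part in the level of S100b was not tested. In the GRCr8 annotation the span of S100b overlaps that of Dip2a, with means of 82.8 CPM (WT) and 75.8 CPM (KO) (log2 fold change -0.13, unadjusted p = 0.176).

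Aldh1l1, a folate enzyme that marks astrocytes broadly, had the fewest reads of the set. It had 40.8, 44.1 and 45.7 CPM in WT and 51.1, 45.7 and 44.2 CPM in KO rats. Only KO replicate 1 was clearly above the WT libraries, and the difference was 7.86%, with an interval from -4.91% to 22.3% (log2 fold change 0.11, SE 0.09, unadjusted p = 0.219, adjusted p = 0.721 from edgeR). Without KO replicate 1 the log2 fold change of Aldh1l1 was 0.0449, and without WT replicate 1 it was 0.0653. At an unadjusted p under 0.05, 4.19% of all genes tested were higher and 5.15% lower. Among 14 tested paralogs of S100b and genes of one-carbon folate metabolism, 0 were higher and 1 was lower at that threshold. The lower gene was the calcium-binding protein gene S100a16 (-0.18, unadjusted p = 0.0220 from edgeR), and the median was -0.07. None passed an adjusted p of 0.05.

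**Figure D4:**
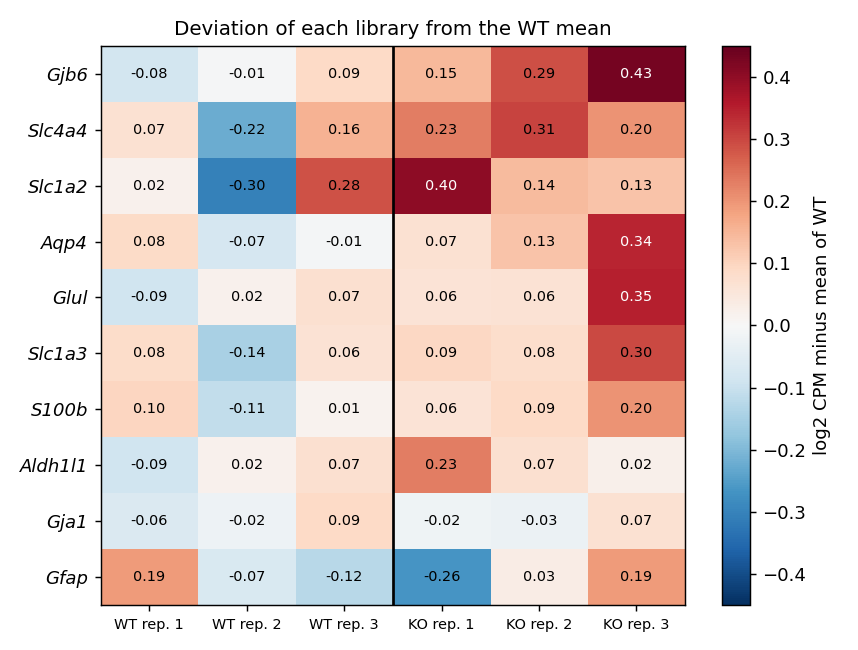
Log2 CPM of each library minus the mean of the 3 WT libraries, for each of the 10 genes (rows) and 6 libraries (columns), coloured from blue (lower) to red (higher). KO replicate 3 lies above the WT mean in all 10 genes, WT replicate 2 lies below it in 8, and Gfap and Gja1 show no common direction among the KO libraries.

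Read across libraries, most genes of the set lay above the WT mean in each KO library, but also in WT replicate 3. Relative to the WT mean, the median deviation over the 10 genes was 0.04, -0.07 and 0.07 on the log2 scale in WT replicates 1, 2 and 3 and 0.08, 0.08 and 0.20 in KO replicates 1, 2 and 3, while the median over all genes was at most 0.0040 in any library. KO replicates 1, 2 and 3 were above the WT mean in 8, 9 and 10 of 10 genes, and KO replicate 3 was the highest library in 5. WT replicate 3, the library that stood apart from its group, was above the WT mean in 8 of 10, and WT replicates 1 and 2 in 6 and 2. WT replicate 2 was the lowest library in 5 genes. Without KO replicate 3 the median log2 fold change of the set was 0.0900, and without WT replicate 2 it was 0.10.

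The remaining astrocyte markers did not share the direction of the set. Of 52 tested genes, 24 had a positive and 28 a negative log2 fold change (median -0.03), with 4 higher and 6 lower by an unadjusted p under 0.05. The shares over all genes tested were 4.19% higher and 5.15% lower. None of the 52 passed an adjusted p of 0.05 in edgeR. Higher was Mertk, a receptor with which astrocytes and microglia engulf debris, with 39.5, 39.3 and 47.8 CPM in WT and 51.6, 51.2 and 58.9 CPM in KO rats (log2 fold change 0.35, SE 0.09, unadjusted p = 0.00215). Lower were Apoe, the lipid carrier of astrocytes (-0.21, unadjusted p = 0.00301), Hes5, a target of Notch signalling (-0.45, unadjusted p = 0.00406), and Fjx1 (-0.36, unadjusted p = 0.000661), whose Drosophila homologue is a kinase of the Golgi and which was the only gene of the list past an adjusted p of 0.05 in DESeq2 (0.0291). The transcription factor Sox9 had a log2 fold change of -0.11 (unadjusted p = 0.366) and the aldolase Aldoc of 0.07 (unadjusted p = 0.351). Without WT replicate 3, the counts were 7 higher and 13 lower, in a fit with 1033 higher and 1062 lower of 11891 genes. Whether the difference in direction between the set and this list exceeds the spread between rats was not tested.

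**Figure D5:**
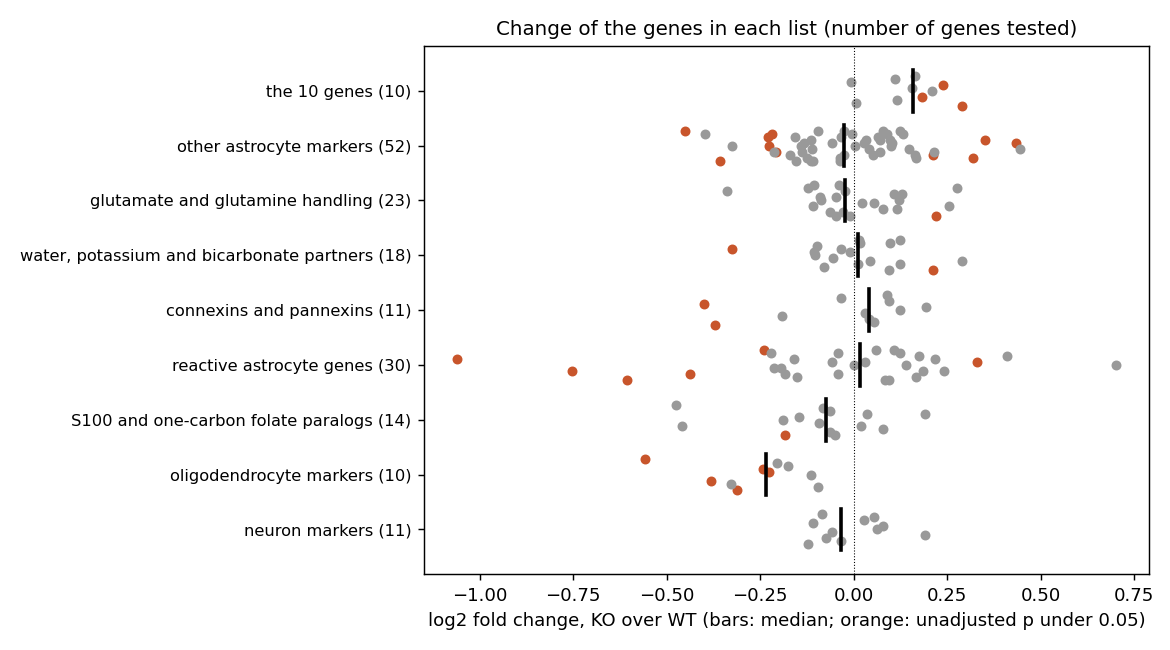
Log2 fold change of KO over WT (x axis) for each tested gene of the set and of 8 other lists (points, orange for an unadjusted p under 0.05 in edgeR), with the median of each list as a bar. The median of the 10 genes, 0.16, lies to the right of that of the other astrocyte markers, -0.03, while the oligodendrocyte markers lie to the left at -0.23.

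Markers of other cell types were counted in the same libraries at an unadjusted p under 0.05 from edgeR. Over all genes tested, 4.19% were higher and 5.15% lower at that threshold. No marker of these lists passed an adjusted p of 0.05 in edgeR. A single called gene in a short list was not taken as a change of its cell type. Oligodendrocyte markers were lower, 5 of 10 at an unadjusted p under 0.05 and 10 of 10 with a negative log2 fold change, such as the myelin gene Mbp (-0.24). Of 5 precursor markers 1 was lower, C1ql1 (-0.60), and the sums were 206 to 244 CPM in WT and 170 to 224 CPM in KO libraries. Of 11 neuron markers none was called, with sums of 8658 to 9856 CPM and 8891 to 9466 CPM. Of 10 microglia markers 1 was lower, Cx3cr1 (-0.34), with sums of 538 to 629 CPM and 547 to 610 CPM. Of 9 endothelial and mural markers 2 were higher, Abcb1a (0.32) and Flt1 (0.15), and 1 was lower, Kcnj8 (-0.74), with sums of 334 to 364 CPM and 362 to 378 CPM. Of 6 ependyma and choroid plexus markers 1 was lower, Ttr (-1.12), with sums of 52.7 to 58.1 CPM and 44.8 to 52.4 CPM. The same sum over the 10 astrocyte genes was 8336 to 9222 CPM in WT and 9125 to 10533 CPM in KO libraries. In this sum the groups overlapped. Over the 52 other tested astrocyte markers the groups overlapped too, with sums of 23432 to 24499 CPM in WT and 22403 to 25108 CPM in KO libraries. The part of the oligodendrocyte difference in the levels of the 10 genes was not tested.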

How the data were processed

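Total RNA of hippocampal samples of 6 rats was sequenced (directional kit, single-end). The authors used FastQC for quality control, HISAT2 for alignment against rn6 and htseq-count (intersection non-empty) to obtain gene counts. Versions, annotation and strand setting are not given in the sources used here. The deposited table holds raw counts, 0 columns of which were left unassigned. A further deposited table with the authors' DESeq2 comparison (mean level, fold change, standard error, statistic, p and adjusted p) was not used.

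The model of these counts used edgeR 4.0.16 (R 4.3.3): filterByExpr with a minimum count of 10, TMM, and a robust quasi-likelihood fit with genotype as the only term. DESeq2 1.42.0, limma-voom (limma 3.58.1), other scalings, no filter, the replicate number as a block and leaving out each library were alternatives. Log2 ratios of counts plus 0.5 were compared by exact permutation tests. Log2 CPM values used a prior count of 2. The fit was tested on simulated data. Principal components were computed on log2 CPM.

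The 10 genes and 12 companion lists (other astrocyte markers; glutamate and glutamine handling; water, potassium and bicarbonate partners; connexins and pannexins; reactive astrocyte genes; S100 and folate paralogs; and markers of oligodendrocytes, their precursors, microglia, endothelial and mural cells, neurons, and ependyma and choroid plexus) were written from general knowledge with earlier results of these data known. Named singly were the 10 genes, Fmr1, up to 4 genes of each list with the smallest p, and named partners (Slc1a1, Slc38a3, Glud1, Kcnj10, Vim, Gjb2, Sox9, Aldoc and Mlc1). Cd44, Serping1, Dip2a and the genes within the span of Glul were named outside this rule. Some genes that the rule selects are not reported here. Lists carry no test. Exon lengths were not used here, so levels were not compared between genes. Gene overlaps and promoter windows, found for all 10 genes, come from RefSeq on GRCr8.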

Additional observations from a re-analysis of the deposited data

How the results depend on the processing

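The count of 3 genes of the set higher at an unadjusted p under 0.05 was 5 with library totals only, with no filter on low counts, with DESeq2 and under a replicate block. It was 1 to 6 when 1 library was left out (1 without WT replicate 2, 6 without WT replicate 3). Over all genes, 495 of 11800 were higher in the main fit, 585 of 11800 with library totals and 505 of 11800 under the block. With no filter 556 of 14479 were higher, and with DESeq2 369 of 14474. Without WT replicate 2 the count was 324 of 11889, and without WT replicate 3 it was 1033 of 11891. The count past an adjusted p of 0.05 was 0 to 1, the 1 being Gjb6 without WT replicate 3. The count of genes higher without overlap was 4 with library totals only and 2 to 5 when 1 library was left out. Groups separate more easily when they hold fewer libraries. The share of 7.19% of all genes belongs to the main fit, and shares for these settings are not given here. Gfap had a log2 fold change of 0.0041 with library totals only and -0.11 to 0.11 when 1 library was left out, and Gja1 of -0.0248 to 0.0518. The other 8 genes were higher in KO rats in all 12 alternatives.

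Over the companion lists, 0 genes passed an adjusted p of 0.05 in edgeR, with 8 genes higher and 24 lower by unadjusted p under 0.05. The shares of all genes tested were 4.19% higher and 5.15% lower. The count of 0 was 1 with no filter, 6 with DESeq2, 3 with the replicate block and 0 to 9 when 1 library was left out, and the count of 8 was 5 to 20. Over all genes, the count of 3 past an adjusted p of 0.05 was 9 with no filter, 35 with DESeq2, 17 with the replicate block and 1 to 256 when 1 library was left out. Same-numbered libraries did not deviate together (correlations of 0.028, -0.0090 and -0.078 across genes), and the labels give no pairing. With 3 libraries per group, differences of the size seen here, mostly under 20%, lie near or below what the spread between rats lets pass over all genes.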
